A study of Mus musculus with 18 samples.

Results

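The 10 genes described here are the cytosolic heat shock chaperones Hspa1a, Hspa1b, Hspa8, Hsp90aa1, Hsp90ab1, Hspb1, Dnaja1, Dnajb1 and Hsph1, together with Hsf1, which encodes the heat shock transcription factor. They were picked by gene symbol from the 22558 genes of the deposited tables of mouse retina and of RPE/choroid, the retinal pigment epithelium with the vascular layer beneath it. All 10 were found, held at least 43 fragments in every library and entered every fit. RNA-seq was made from 18 libraries of 30-day-old mice, with 3 libraries per genotype and tissue. The genotypes were wild type, the knockout Abca4-/- and mice homozygous for the Abca4 allele L541P;A1038V (the knock-in), all on a mixed 129SV and C57BL/6 background. Abca4 encodes a retinoid transporter of photoreceptor outer segments, and its loss in people causes Stargardt disease. Tissue was dissected between 3 and 5 PM and went straight into RNALater, and whole tissue was used, so each library mixes the RNA of many cell types. Whether each library is a separate animal is not stated, so the p-values below measure only the spread between these libraries, which may be technical.

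HSP70 proteins bind stretches of unfolded protein and release them with the use of ATP, J-domain proteins such as Dnaja1 and Dnajb1 bring them their clients, and Hsph1 exchanges the nucleotide that ends each cycle. HSP90 proteins complete the folding of kinases and receptors, and the small heat shock protein Hspb1 holds unfolded proteins without ATP. Hsf1 is kept inactive by chaperones in resting cells and, when unfolded protein draws those chaperones away, binds heat shock elements in the promoters of Hspa1a, Hspa1b, Dnajb1, Hspb1 and others. The inducible members are known to respond within minutes to heat, light and tissue handling, so their level is given library by library.

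Promoter sequence of RefSeq (GRCm38.p6, a later assembly than that of the deposited tables) was at hand for 6 of the 10 genes: Hspa1a, Hspa1b, Hspb1, Dnaja1, Dnajb1 and Hsph1. A heat shock element is built of the unit GAA and its complement in alternation, and its core was searched as GAANNTTC and as TTCNNGAA, each of which reads the same on both strands. In 5 of the 6 genes at least 1 of these letters' runs lay in the 250 bases before a start, and Dnajb1 had none in these windows. Counted the same way, 14.55% of the 27025 genes in the table held either run. The 150 bases before the start of the 5 genes are shown 5′ to 3′ on the gene's own strand because they carry these runs, which are in capitals. They lie at chr17:34972157-34972306 (minus strand) for Hspa1a, chr17:34959239-34959388 (minus) for Hspa1b, chr5:135887769-135887918 (plus) for Hspb1, chr4:40722318-40722467 (plus) for the first listed start of Dnaja1 and chr5:149636337-149636486 (minus) for the first listed start of Hsph1.
Hspa1a: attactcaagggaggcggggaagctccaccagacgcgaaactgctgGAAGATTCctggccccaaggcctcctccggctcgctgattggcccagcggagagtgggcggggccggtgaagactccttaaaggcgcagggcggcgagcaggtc
Hspa1b: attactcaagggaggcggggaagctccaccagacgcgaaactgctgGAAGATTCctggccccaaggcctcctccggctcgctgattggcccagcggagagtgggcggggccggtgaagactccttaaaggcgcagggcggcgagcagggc
Hspb1: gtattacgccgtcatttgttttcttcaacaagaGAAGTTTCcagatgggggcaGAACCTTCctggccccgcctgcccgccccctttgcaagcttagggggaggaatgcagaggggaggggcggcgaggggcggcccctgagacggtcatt
Dnaja1: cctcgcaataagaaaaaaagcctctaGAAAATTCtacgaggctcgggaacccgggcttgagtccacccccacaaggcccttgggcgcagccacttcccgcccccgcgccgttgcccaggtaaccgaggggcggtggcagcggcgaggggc
Hsph1: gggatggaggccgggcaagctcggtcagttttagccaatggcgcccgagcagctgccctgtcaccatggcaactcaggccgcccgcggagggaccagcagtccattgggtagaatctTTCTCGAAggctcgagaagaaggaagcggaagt

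The promoters of Hspa1a and Hspa1b were almost the same sequence. With positions counted from the start site, Hspa1a first, they differed at C-207T, T-204C and T-2G in the 250 bases before the start and at C25T after it, and the run GAAGATTC began 104 bases before the start in both. Hspb1 held 2 runs, beginning 117 and 97 bases before its start. Dnaja1 held 1 at 124 bases before its first listed start and none before its other listed starts. Hsph1 held 1 at 33 bases before its first listed start, and others began 36 and 41 bases after it. A match of letters is a description of the sequence and shows neither binding nor its absence.

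Libraries held 11553291 to 23579152 assigned fragments in retina and 14621635 to 30048059 in RPE/choroid. Levels of different genes are compared in FPKM as deposited, a unit that scales fragments by transcript length and depth. A single gene is compared between libraries in CPM, fragments scaled by depth alone with the TMM method over all 18 libraries. The deposited FPKM departs from plain length scaling by a factor that differs between genes. In wild-type retina library 0, Hspa1a had 16.2 FPKM and 10.8 CPM per kilobase of transcript, and Hsp90aa1 had 697 and 1041. The order of levels is therefore also given per kilobase where it differs. Abca4 stood at 551 to 577 CPM in the 3 knockout retinas against 1704 to 1965 in wild type and 1336 to 1672 in knock-in. Rpe65, the visual-cycle isomerase that marks the pigment epithelium, stood at 1795 to 2262 CPM in RPE/choroid. The RPE/choroid samples also held a summed 11932 to 19122 CPM of 7 skeletal muscle genes, against 18.2 to 38.5 in retina, and 8940 to 11023 CPM of 5 melanocyte genes, whose retinal median was 45.9. The summed lens crystallins and other lens genes spread widely in retina, from 37.0 to 590 CPM in wild type, 389 to 11213 in knockout and 313 to 5163 in knock-in. Sex, read from Xist and Ddx3y, was uneven: 1 of the wild-type, 2 of the knockout and 3 of the knock-in retinas were female, as was 1 RPE/choroid library, a knock-in.

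In retina the HSP90 genes and Hspa8 had the highest levels. Hsp90aa1, an HSP90 isoform that is inducible in many cells, had the highest median, 764 FPKM (lowest 667, highest 974). Hspa8, the constitutive HSP70, followed at 662 FPKM (550 to 754), and Hsp90ab1, the constitutive HSP90, at 196 FPKM (175 to 263). Within each of the 9 retinas Hsp90aa1 exceeded Hspa8 and Hspa8 exceeded Hsp90ab1, although the ranges of the first pair overlapped between libraries by FPKM. In CPM per kilobase Hsp90aa1 (827 to 1041) and Hspa8 (632 to 761) did not overlap.

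The J-domain genes came next in retina, Dnaja1 at 38.5 FPKM (35.2 to 46.3) and Dnajb1 at 27.2 (22.5 to 29.4). Below them Hspa1a, an inducible HSP70, had a median of 14.6 FPKM (10.6 to 19.8) and Hsph1 one of 14.4 (13.1 to 16.0). These neighbours changed places between libraries by FPKM. In CPM per kilobase Hsph1 (12.8 to 16.7) lay above Hspa1a (9.39 to 12.6) in all 9 retinas, without overlap. At the low end Hsf1 had 10.9 FPKM (9.51 to 12.8), Hspa1b, the other inducible HSP70, 9.77 (lowest 6.79) and Hspb1 7.54 (5.36 to 15.6), with overlapping ranges by FPKM. Per kilobase Hsf1 (8.69 to 11.1) lay above Hspa1b (5.73 to 7.64) without overlap, and Hspa1b was above Hspb1 in 8 of 9 libraries. By FPKM, Hspa8 and Hsp90aa1 exceeded 99.7% and 99.8% of all genes in retina, and Hspb1 exceeded 62.8%.

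The order differed in RPE/choroid. Hspa8 was first at a median of 630 FPKM (533 to 669), followed by Hsp90ab1 at 340 (260 to 388) and Hsp90aa1 at 259 (204 to 309). Hspb1, last in retina, was the fourth at 157 FPKM (103 to 216). Hspa1b at 38.5 FPKM (17.4 to 43.4), Dnaja1 at 31.3 (25.7 to 47.8) and Dnajb1 at 31.1 (26.1 to 34.7) overlapped by FPKM and changed order from library to library. In CPM per kilobase, Dnaja1 (32.0 to 35.5) lay above Dnajb1 (24.6 to 31.5) without overlap and above Hspa1b in 8 of 9 libraries, while Hspa1b and Dnajb1 still changed places. Hspa1a had 21.5 FPKM (11.1 to 23.4), and Hsf1 at 10.5 (9.71 to 13.9) and Hsph1 at 10.5 (8.26 to 11.6) changed places by FPKM, whereas per kilobase Hsph1 was the higher in 8 of 9 libraries.

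**Figure D1:**
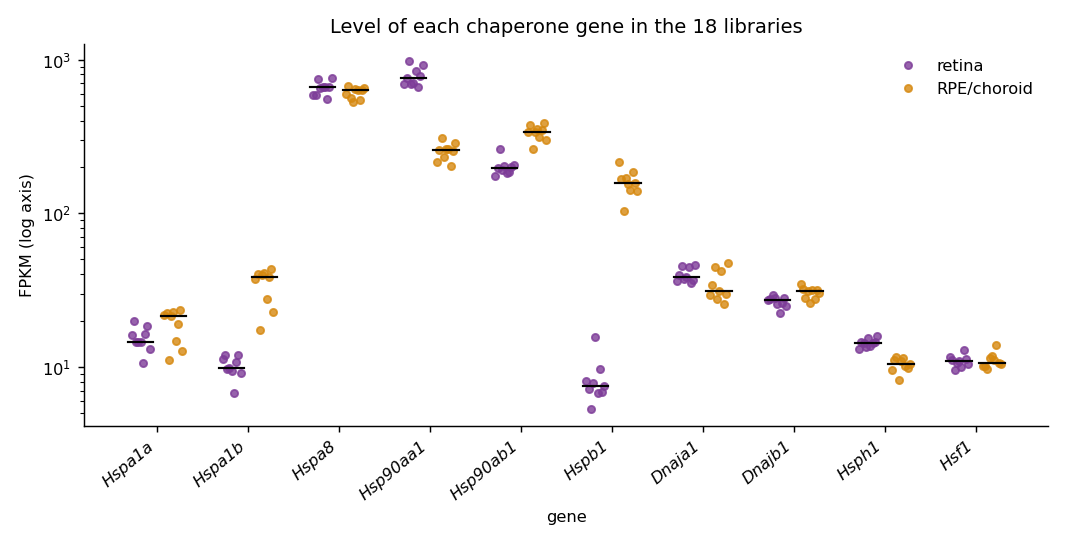
FPKM of the 10 genes on a log axis in the 9 retinal and 9 RPE/choroid libraries, 1 point per library, with the median as a black bar. Hspb1 moves from a median of 7.54 in retina to 157 in RPE/choroid, while Hspa8 and Hsf1 keep nearly the same median.

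The tissues were compared with edgeR's quasi-likelihood test on the counts of all 18 libraries, with p-values adjusted by Benjamini-Hochberg over 16222 genes and genes under 0.05 called. Of the 10 genes, 9 were called, 6 higher and 3 lower in RPE/choroid. This share is no mark of the chaperones, because 91.8% of all tested genes were called, 46.9% as higher and 45% as lower. By size, 3 of the 10 were called and differed at least 2-fold, Hspb1, Hspa1b and Hsp90aa1, against 51.9% of all genes. The median log2 difference of the 10 was 0.20, beside 0.03 over all genes. In bulk tissue fewer cells of a type and less RNA per cell cannot be told apart, and the muscle and melanocyte genes above differ along with every tissue result here. Their part was not tested.

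Among the HSP70 genes the inducible pair was higher in RPE/choroid and the constitutive gene was not detectably different. Hspa1b (chromosome 17, bases 35093374 to 35096183 of mm9) ran from 16.1 to 21.5 CPM in retina, with a median of 20.6, and from 59.5 to 93.7 in RPE/choroid, with a median of 80.2. Every RPE/choroid library lay above every retina, and the fitted difference was 2.02 on the log2 scale (SE 0.061), 4.07-fold, with an adjusted p of 2.8e-15 by edgeR.

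Hspa1a (chromosome 17, bases 35106304 to 35109101) ran from 26.3 to 35.3 CPM in retina, median 31.3, and from 38.6 to 52.4 in RPE/choroid, median 46.4. The tissues again did not overlap, at a log2 difference of 0.57 (SE 0.055, adjusted p 2.9e-08 by edgeR). Hspa8 (chromosome 9, bases 40609356 to 40613283) had 1330 to 1602 CPM in retina, median 1509, and 1337 to 1575 in RPE/choroid, median 1469. These ranges coincided, and the difference of -0.01 had a 95% interval from -0.11 to 0.08 (adjusted p 0.757 by edgeR).

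Within the inducible pair the share of Hspa1b turned over between tissues. It was 38.9% ± 0.97 (SD, n = 9) of the fragments of both genes in retina, from 37.2% to 40.3%, and 63.6% ± 1.70 (SD, n = 9) in RPE/choroid, from 60.1% to 66.5%. No library of either tissue came near the other. The genotypes overlapped in retina, and in RPE/choroid the wild-type libraries (60.1% to 63.3%) lay just below those of knockout (63.4% to 64.5%) and knock-in (63.4% to 66.5%), a difference that was not tested. The 2 transcripts share sequence: 47.1% of the 100-base windows of the Hspa1a transcript occur in Hspa1b and 49.9% of those of Hspa1b in Hspa1a, all between bases 127 and 2111. How the authors' counting shared out fragments from there is not given in the sources used here, so the true share of each gene is uncertain. By FPKM the shares were 39.7% ± 1.04 and 64.4% ± 1.53 (SD, n = 9 each). The pair together made up 2.52% ± 0.32 of the HSP70 fragments per kilobase in retina (pair plus Hspa8) and 6.05% ± 0.43 in RPE/choroid (SD, n = 9 each). By FPKM these shares were 3.81% ± 0.89 and 8.02% ± 2.04. Of the 100-base windows of Hspa8, 62.8% also occur in other genes, mostly Gm15459, so its level is uncertain as well.

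The HSP90 genes moved in opposite directions. Hsp90aa1 (chromosome 12, bases 111929246 to 111934605) had 2356 to 2966 CPM in retina, median 2669, and 820 to 978 in RPE/choroid, median 898. All RPE/choroid libraries were far below all retinas, with a log2 difference of -1.59 (SE 0.043, adjusted p 7.4e-16 by edgeR), 3.00-fold. Hsp90ab1 (chromosome 17, bases 45704727 to 45710210) had 494 to 689 CPM in retina, median 552, and 959 to 1204 in RPE/choroid, median 1064.

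Hsp90ab1 was therefore higher in every RPE/choroid library, by 0.93 on the log2 scale (SE 0.054, adjusted p 2.1e-11 by edgeR), 1.90-fold. The ratio of Hsp90aa1 to Hsp90ab1 per kilobase was 4.22 ± 0.39 in retina, from 3.41 to 4.80, and 0.739 ± 0.074 in RPE/choroid, from 0.655 to 0.897 (SD, n = 9 each). The inducible isoform thus exceeded the constitutive one in each retina and stood below it in each RPE/choroid library. By FPKM the RPE/choroid ratio ran from 0.583 to 1.19, and wild-type library 2 alone stood above 1. Of the 100-base windows of Hsp90aa1, 47.6% occur in other genes, mostly the pseudogene Gm12346, and none of Hsp90ab1 do.

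**Figure D2:**
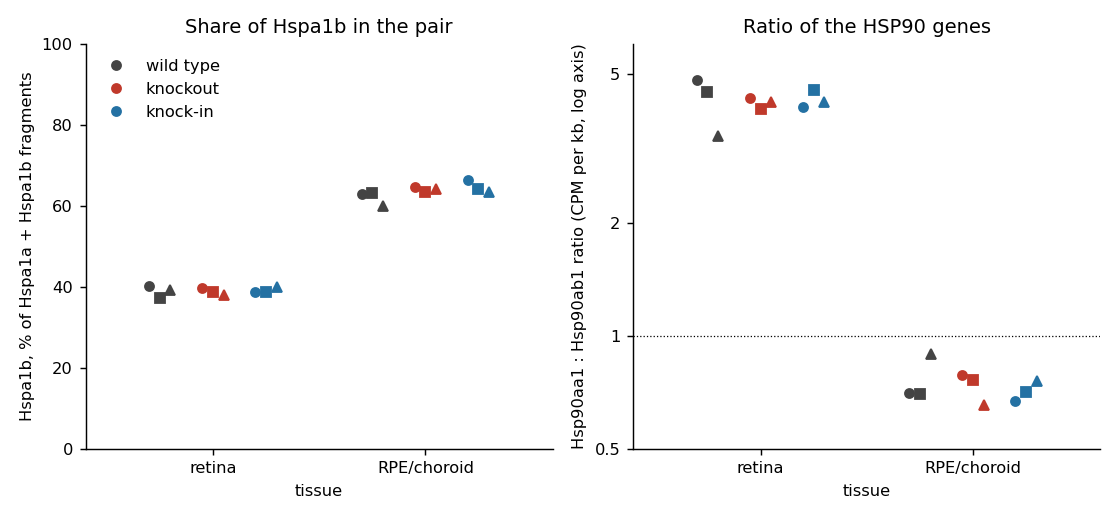
Left, Hspa1b as a percentage of the fragments of Hspa1a and Hspa1b together. Right, the ratio of Hsp90aa1 to Hsp90ab1 in CPM per kilobase on a log axis with 1 dotted. Each point is a library, colored by genotype, with circle, square and triangle for table numbers 0, 1 and 2. Retina lies at 37.2% to 40.3% and 3.41 to 4.80, RPE/choroid at 60.1% to 66.5% and 0.655 to 0.897.

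Hspb1 (chromosome 5, bases 136363789 to 136365433) showed the largest difference of the 10. It had 3.45 to 7.49 CPM in retina, median 3.84, and 85.4 to 128 in RPE/choroid, median 95.8. No library came between, and the log2 difference was 4.55 (SE 0.147, adjusted p 1.5e-13 by edgeR), 23.4-fold. A smaller absolute difference was fitted for 87.8% of all tested genes. Of its 100-base windows 56.3% also occur in the pseudogene Hsp25-ps1.

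The J-domain genes differed little. Dnaja1 (chromosome 4, bases 40669501 to 40704918) had 224 to 251 CPM in retina, median 236, and 178 to 198 in RPE/choroid, median 186, a log2 difference of -0.35 (SE 0.030, adjusted p 5.3e-09 by edgeR) without overlap. Dnajb1 (chromosome 8, bases 86132074 to 86135802), the J-domain partner of inducible HSP70, had 48.9 to 64.7 CPM in retina, median 52.9, and 55.6 to 71.4 in RPE/choroid, median 63.8. Its ranges overlapped, and it was higher by 0.26 (SE 0.058, adjusted p 4.4e-04 by edgeR). Fitted on the wild-type libraries alone the difference was 0.25 and was not called (adjusted p 0.076). Of the 3 listed Dnaja1 transcripts, NM_008298 held 83.7% to 92.3% of the gene's FPKM in retina and 93.7% to 97.2% in RPE/choroid. The other 9 genes have 1 listed transcript each.

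Hsph1 (chromosome 5, bases 150419420 to 150438890) had 44.6 to 58.2 CPM in retina, median 54.7, and 34.3 to 43.6 in RPE/choroid, median 41.7. It was lower in every RPE/choroid library, by a log2 difference of -0.39 (SE 0.062, adjusted p 1.2e-05 by edgeR). Hsf1 (chromosome 15, bases 76307875 to 76331402) had 17.5 to 22.4 CPM in retina, median 19.4, and 18.4 to 24.8 in RPE/choroid, median 21.4. The ranges of Hsf1 nearly coincided, and its call rested on a log2 difference of 0.14 (SE 0.056, adjusted p 0.0257 by edgeR), and was lost under 10 of 27 alternatives. Those include leaving out any 1 of wild-type retina 2 (log2 difference 0.10), knockout retina 0 (0.12) or 2 (0.11), knock-in retina 1 (0.12), knockout RPE/choroid 2 (0.13) and knock-in RPE/choroid 0 (0.11). The transcript of the factor thus had almost the same level in both tissues. Of genes it is known to drive, Hspb1 (4.55), Hspa1b (2.02), Hspa1a (0.57) and Dnajb1 (0.26) were higher in RPE/choroid on the log2 scale. Hsph1 (-0.39), another such gene, was lower. Lower too were Hsp90aa1 (-1.59), the HSP90 isoform that is inducible in many cells, and Dnaja1 (-0.35), whose promoter run is shown above. The part of Hsf1 in these differences was not tested.

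Between genotypes, 0 of the 10 genes were called in any of the 6 comparisons by edgeR (60 tests). DESeq2 and limma, run as alternatives, also called 0. Over all tested genes few were called either: in retina 0.98% between knockout and wild type, 0.265% between knock-in and wild type and 1.26% between knock-in and knockout. In RPE/choroid the shares were 0.472%, 0.0647% and 0.453% in the same order. With 10 genes a count of 0 is what such shares give, so the intervals say more. Outside Hspb1, the 95% intervals of the retinal difference of knockout from wild type ran from -0.45 to 0.22 on the log2 scale, that is from 0.733 to 1.17 times the wild-type level. Those of knock-in from wild type ran from -0.28 to 0.31 in retina and from -0.33 to 0.40 in RPE/choroid. In RPE/choroid those of knockout from wild type ran from -0.34 to 0.46, and those of knock-in from knockout ran from -0.18 to 0.45 in retina and from -0.35 to 0.24 in RPE/choroid. Changes of 1.5-fold and over therefore lie outside the limits of these 9 genes in all 6 comparisons, whereas Hspb1 is less tightly bounded, up to 1.07 on the log2 scale in knockout retina.

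At an unadjusted p under 0.05, 3 genes passed between knockout and wild-type retina, Hspa1a, Hspa1b and Hspb1, and 2 between knock-in and knockout retina, Hspa1a and Hspa1b. The other 4 comparisons had 0. Over all genes the shares at this threshold were 12.5% and 11.7% for these 2 comparisons, 8.5% between knock-in and wild-type retina, and in RPE/choroid 15.5% between knockout and wild type, 5.53% between knock-in and wild type and 12.2% between knock-in and knockout. The same genes were those whose groups did not overlap, 3 and 2 of 10, where 17.9% and 17.5% of all genes had groups that did not overlap. The number was 0 in the others, where the shares were 15.3% between knock-in and wild-type retina and, in the order just given, 21.8%, 9.84% and 22% in RPE/choroid. None of these member counts stands far from its background.

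Hspa1a and Hspa1b were the lowest in the 3 knockout retinas. Hspa1a had 28.1, 27.0 and 26.3 CPM in knockout retina, 30.3, 35.3 and 33.4 in wild type and 32.5, 34.1 and 31.3 in knock-in. Hspa1b had 18.5, 17.0 and 16.1 CPM in knockout, 20.4, 20.9 and 21.5 in wild type and 20.6, 21.5 and 20.8 in knock-in. Each knockout library was below all 6 others for both genes, though the step was small.

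For knockout against wild type, the log2 difference was -0.28 for Hspa1a (SE 0.075, 95% interval -0.44 to -0.12) and -0.28 for Hspa1b (SE 0.079, 95% interval -0.45 to -0.11). Neither was called, with adjusted p-values of 0.113 and 0.138 by edgeR. Knock-in against knockout, which shares the knockout libraries, gave 0.27 for Hspa1a (adjusted p 0.117) and 0.28 for Hspa1b (adjusted p 0.109). When the fragments of the pair were summed and tested as 1 gene, that comparison gave 0.27 with an adjusted p of 0.055, the smallest among 108 alternative fits of the 6 genotype comparisons. The authors' deposited table of comparisons lists an unadjusted p of 0.00595 and a q of 0.163 for Hspa1a between knockout and wild-type retina, and marks 0 of its 30 entries for the 10 genes as significant in either tissue.

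Other measures moved with the knockout retinas. The summed level of 17 immediate early genes, which respond fast to light, activity and handling, was 351 to 398 CPM in knockout retina, 446 to 540 in wild type and 451 to 575 in knock-in, so knockout was the lowest here too. Some cell type lists also set the 3 knockout retinas apart from the other 6. The 7 Müller glia and astrocyte genes summed to 5884 to 6134 CPM against at most 5772, and 5 melanocyte genes to at least 52.9 against at most 46.4. The 5 erythroid genes summed to 5.36 to 6.07 CPM against at least 7.18, and up to 2 of them had no fragment in a retina. The RPE, rod, cone, lens, skeletal muscle, endothelium and microglia lists overlapped between knockout and the other 6. With a term for the lens genes in the fit, the knockout difference was -0.20 for Hspa1a and -0.18 for Hspa1b, with adjusted p-values of 0.598 and 0.648 by edgeR. In the same fit, knock-in against knockout gave 0.24 and 0.25, with adjusted p-values of 0.168 and 0.142 by edgeR. The part of handling, light and tissue content in these differences was not tested.

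RPE/choroid did not show the same order. There Hspa1a had 43.1, 48.5 and 52.4 CPM in knockout against 46.4, 49.0 and 39.6 in wild type and 38.6, 47.1 and 46.2 in knock-in, and the groups overlapped. Hspa1b had 78.4, 84.1 and 93.7 CPM in knockout, 78.5, 84.4 and 59.5 in wild type and 76.6, 84.1 and 80.2 in knock-in. The low value of both genes among wild types was library 2, which also held 5470 CPM of summed rod genes against 186 to 990 in the other 8.

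The test of the difference itself, the knockout effect in RPE/choroid minus that in retina, gave 0.37 for Hspa1a (adjusted p 0.283 by edgeR) and 0.48 for Hspa1b (adjusted p 0.201 by edgeR). No member was called in this contrast, where 0.136% of all genes were and 2 members passed an unadjusted p under 0.05 beside 12.3% of all genes. Without RPE/choroid wild-type library 2 the value for Hspa1b was 0.34, with an adjusted p of 0.098. For the knock-in effect 0 members were called (0.0555% of all genes) and 0 passed the unadjusted threshold (5.98% of all genes).

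**Figure D3:**
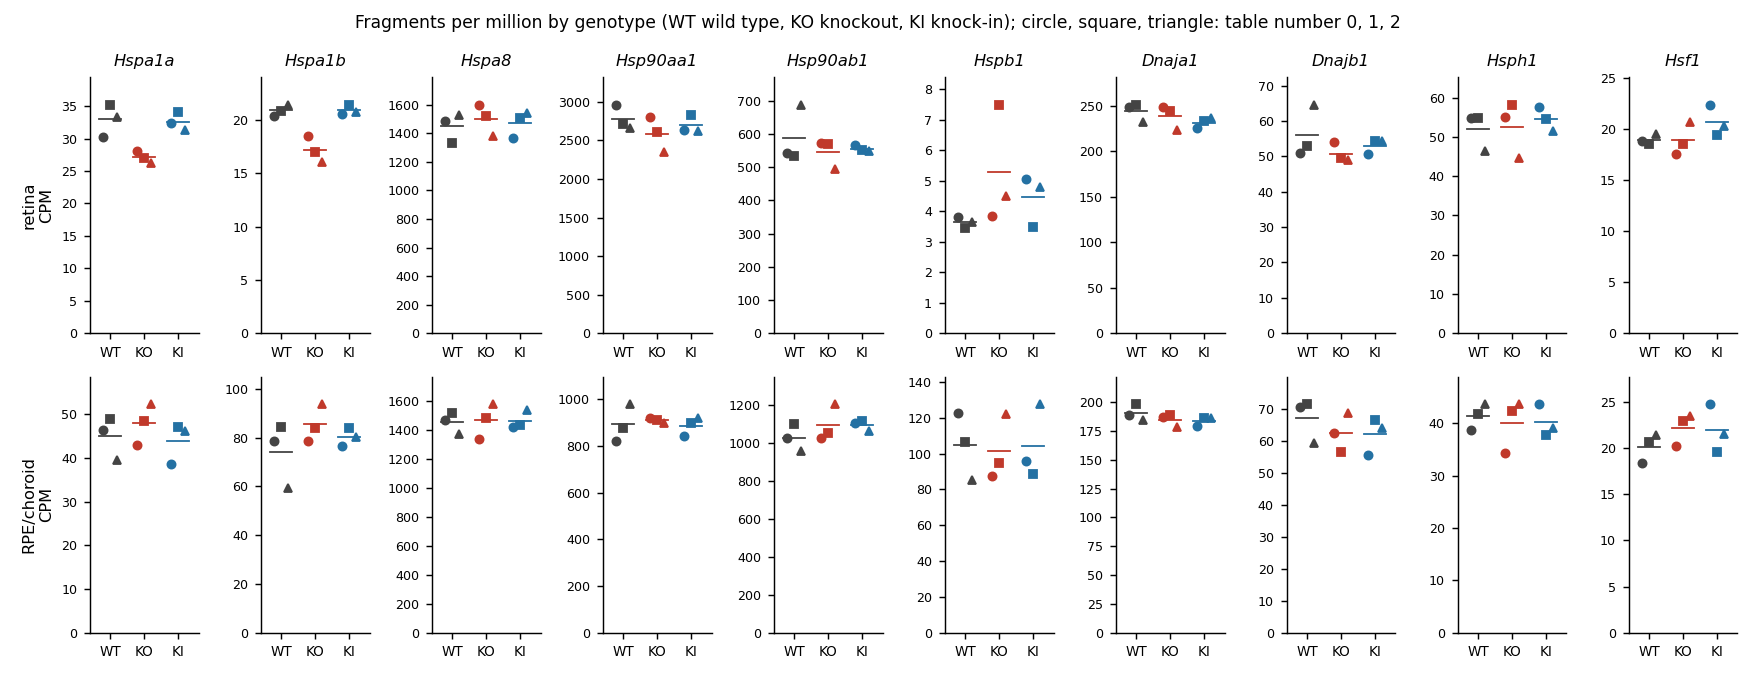
CPM of the 10 genes by genotype, retina above and RPE/choroid below, on axes that start at 0. Points are libraries, shaped by their table number, and bars are means of 3. Hspa1a at 26.3 to 28.1 and Hspa1b at 16.1 to 18.5 are lowest in knockout retina, and the other panels overlap except Hspb1 in retina.

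Hspb1 varied most between retinas. It had 3.84, 7.49 and 4.51 CPM in knockout, 3.82, 3.45 and 3.63 in wild type and 5.06, 3.48 and 4.81 in knock-in, from 43 to 168 fragments a library. The lowest knockout value, 3.84, was just above the highest wild-type value, 3.82, and knock-in overlapped both. The log2 difference was 0.55 (SE 0.241, 95% interval 0.03 to 1.07, adjusted p 0.370 by edgeR), and without knockout library 1 it was 0.19. The lens list summed to 4618 CPM in knockout library 1, 11213 in knockout library 2 and 5163 in knock-in library 0, against 37.0 to 590 in the other 6, and these 3 retinas had 3 of the 4 highest Hspb1 values. Knock-in library 2, the other of these 4, had 4.81 CPM of Hspb1 with a lens sum of 382, above knockout library 2 at 4.51. With a term for the lens genes the knockout difference was 0.17 (adjusted p 0.937 by edgeR). The part of lens tissue in this difference was not tested.

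The remaining 7 genes overlapped between all genotypes in both tissues. Hspa8, Hsp90aa1, Hsp90ab1, Dnaja1, Dnajb1, Hsph1 and Hsf1 had group means that stayed close, for example 1449 ± 105, 1501 ± 112 and 1472 ± 92 CPM for Hspa8 in wild-type, knockout and knock-in retina (SD, n = 3 each). Hsf1 had 18.9 ± 0.52, 18.9 ± 1.61 and 20.7 ± 1.54 CPM in the same groups.

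**Figure D4:**
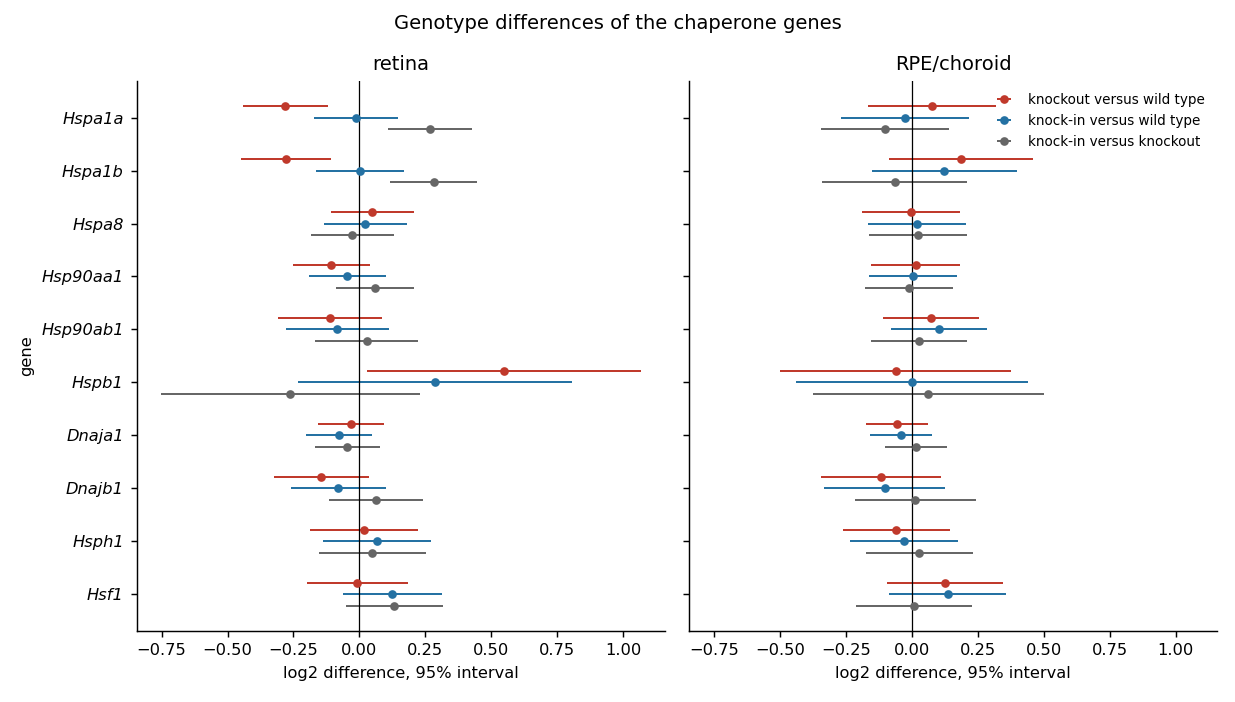
Log2 differences of the 10 genes between genotypes with 95% intervals, retina left and RPE/choroid right, from edgeR. Intervals that leave out 0 belong to Hspa1a and Hspa1b in both comparisons with knockout retina and to Hspb1 between knockout and wild-type retina, and none of these passed adjustment.

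Spread between libraries of 1 group set these limits. As a pooled within-group SD of log2 CPM, Hspa1b had 0.062 in retina, where 13.6% of genes had a smaller SD, and 0.178 in RPE/choroid, where 64.9% did. Among the tenth of genes nearest in abundance, the share in RPE/choroid was 89.3% for Hspa1b, 82.7% for Hspa1a and 97.3% for Hspb1, while for Hspa1b in retina it was 5.99%. Dnaja1 was the steadiest in RPE/choroid at 0.052, where only 6.79% of genes were lower. Hspb1 had 0.336 in retina and 0.265 in RPE/choroid, above 88.0% and 78.7% of genes. The inducible HSP70 genes were thus not unusually variable between the retinas of a genotype.

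Deviations from the genotype means were compared across the 9 libraries of a tissue for 16 pairs, with exact two-sided permutation tests within genotypes and adjustment over all 16, and 0 pairs passed. Hspa1a and Hspa1b went together in RPE/choroid, with Pearson's r of 0.872 and Spearman's rho of 0.933 (both exact p 0.0046, the smallest this test can give, adjusted p 0.074). In retina r was 0.564 and rho 0.717 (exact p 0.051 and 0.056, adjusted p 0.204 and 0.222). Without the 2 libraries farthest from the median of Hspa1a, r was 0.943 in RPE/choroid and 0.752 in retina. The shared windows of the pair enter these values, and their part was not tested.

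Hspa1b and Dnajb1, which share no such windows, gave r of 0.648 and rho of 0.717 in retina (exact p 0.0093 and 0.051, adjusted p 0.074 and 0.222) and r of 0.795 and rho of 0.833 in RPE/choroid (exact p 0.037 and 0.023, adjusted p 0.198 and 0.185). Without the 2 outermost libraries r was 0.821 and 0.663, and by log2(FPKM + 1) it was 0.686 and 0.284. Hspa1b and Hsph1, both known Hsf1 targets, gave r of 0.278 in retina (rho -0.067, exact p 0.731 and 0.917, adjusted p 0.884 and 1) and -0.055 in RPE/choroid (rho 0, exact p 0.861 and 1, adjusted p 0.919 and 1). Hspa1b and the immediate early genes gave 0.417 (rho 0.517, exact p 0.120 and 0.171, adjusted p 0.317 and 0.392) and 0.441 (rho 0.417, exact p 0.403 and 0.421, adjusted p 0.626 and 0.660). The relations with Hsph1 in both tissues and with the immediate early genes in RPE/choroid changed sign without the 2 outermost libraries.

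Over all 18 libraries, after removal of the 6 group means, the genes most like Hspa1b in log2 CPM were Wdr1, an actin-filament disassembly factor (r 0.916), Osbpl9 (0.913), Gm12191 (0.904), Net1 (0.901) and Slfn1 (0.896). Of the other members, Hspa1a ranked 62 (r 0.814), Dnajb1 265 (r 0.707) and Hspa8 498 (r 0.634). The genes most like Hsp90aa1 were Cstf2t (r 0.892), Ppp1cc (0.882), Atp6v1a (0.868), Zfp2 (0.865) and Spata2 (0.863), and the highest-ranked member was Dnaja1 at 2426 (r 0.440). The libraries share depth and tissue makeup, so these values describe the libraries and carry no test.

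Other genes of the chaperone system were read from the same fits. None was called between genotypes in any list: 0 of 14 other Hsf1 targets, 0 of 20 cochaperones of HSP70 and HSP90, 0 of 8 subunits of the chaperonin TRiC and 0 of 6 other heat shock factors and HSP70 relatives in each of the 6 comparisons, by edgeR. The list of other J-domain and small heat shock proteins also had 0, of 8 tested in retina and 9 in RPE/choroid. The list medians between knockout and wild-type retina lay between -0.06 and 0.01 on the log2 scale, beside 0.00 over all genes. In the immediate early list 15 of the 16 tested genes were lower in knockout retina than in wild type, with a median of -0.12. One of them passed, Btg2, an antiproliferative early gene, which fell by 0.36 (SE 0.061, adjusted p 0.0112 by edgeR) and was higher by 0.46 in knock-in than in knockout (adjusted p 0.00158 by edgeR). Fosb, a subunit of the AP-1 factor, had a low level in RPE/choroid, a mean of 5.03 CPM in wild type and 1.38 in knockout. It fell by 1.88 on the log2 scale in knockout RPE/choroid (SE 0.263, adjusted p 0.0188 by edgeR), where 1 of 15 was higher.

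Between tissues the same lists are read against the 46.9% of all genes called higher and the 45% called lower. The lists are small, and whether their counts depart from those shares was not tested. TRiC, the chaperonin that folds actin and tubulin, had 7 of 8 subunits called lower in RPE/choroid and 0 higher, with Cct6a at -0.72 and Cct3 at -0.40 on the log2 scale, and a list median of -0.31. Among the cochaperones 4 of 20 were higher and 11 lower. Bag2 stood at 1.53 and Fkbp4, a prolyl isomerase that works with HSP90, at -0.83 (adjusted p 5.0e-14 and 3.2e-12 by edgeR). The list median was -0.16.

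Of the other Hsf1 targets 5 of 14 were higher and 7 lower, with a median of -0.02, so they did not share 1 direction. Hspb8 rose from 9.26 ± 0.77 to 118 ± 8.8 CPM (SD, n = 9 each, log2 difference 3.67), its partner Bag3 from 4.82 ± 0.73 to 38.6 ± 3.3 (3.01) and the collagen chaperone Serpinh1 from 14.9 ± 4.8 to 354 ± 57 (4.59). Hspa4l, a relative of Hsph1, was the opposite, falling from 403 ± 18 to 77.1 ± 10.1 CPM (-2.39). Of the other J-domain and small heat shock proteins 4 of 9 were higher and 5 lower, with a median of -0.08. Hspb7, known from heart and skeletal muscle, stood at 20.3 ± 5.2 CPM in RPE/choroid against 0.106 ± 0.071 in retina, and Dnajc5, the cysteine string protein of synaptic vesicles, at 138 ± 9.98 against 406 ± 20 (SD, n = 9 each). Of the other heat shock factors and HSP70 relatives 2 of 6 were higher and 4 lower, with Hsf2 at -0.86 and Hspa12a at -3.71, and of 16 tested immediate early genes 10 were higher and 5 lower.

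The unit decided how variable the inducible genes looked. In both tissues the libraries numbered 2 of all 3 genotypes had another relation of FPKM to fragments than the other 6. Over genes with at least 30 fragments in every library, the 3 ratios of FPKM to CPM lay entirely outside the other 6 for 83.7% of 12266 genes in retina and 76.7% of 13375 in RPE/choroid, and the shift was at least 1.25-fold for 24.2% and 36.4%. Across genes the shift went with the GC content of the transcript, at r of -0.915 in retina and -0.888 in RPE/choroid, over the 90.3% and 90.6% of genes with a GC value. These are correlations across genes, which are not independent replicates.

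Some of the chaperones sit at the ends of this shift and others near its middle. Hspa1a and Hspa1b, with a GC content of 58.9% and 58.1%, had 0.581 and 0.589 times the FPKM per CPM in RPE/choroid libraries numbered 2, and only 0.359% of genes had a lower factor than Hspa1a. Hspb1 had 0.654 times and Dnaja1, with a GC content of 41.2%, 1.56 times. For Hspa8 (0.985), Dnajb1 (0.982), Hsph1 (1.06) and Hsp90aa1 (1.13) the RPE/choroid libraries numbered 2 did not lie outside the others. They did for the remaining members, beside 76.7% of genes. In retina they did for every member, beside 83.7% of genes. Hspa1b by FPKM was 17.4 to 27.7 in the RPE/choroid libraries numbered 2 and 37.5 to 43.4 in the other 6, where by CPM it was 59.5 to 93.7 and 76.6 to 84.4. A gap between libraries that is complete by FPKM was therefore absent by CPM.

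In retina the factor was 0.785 for Hspa1a, 0.741 for Hspb1, 1.28 for Dnaja1 and 1.37 for Hsp90aa1. Within groups of RPE/choroid the SD of log2 FPKM was 7.14 times that of log2 CPM for Dnaja1 and 2.87 times for Hspa1b. What set the libraries numbered 2 apart is not given in the sources used here. They are 1 per group, so each genotype holds one. The SD was not larger by FPKM for every member: the ratio was 0.620 for Hsph1 in retina, and 0.918 and 0.943 for Dnajb1 in retina and RPE/choroid.

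**Figure D5:**
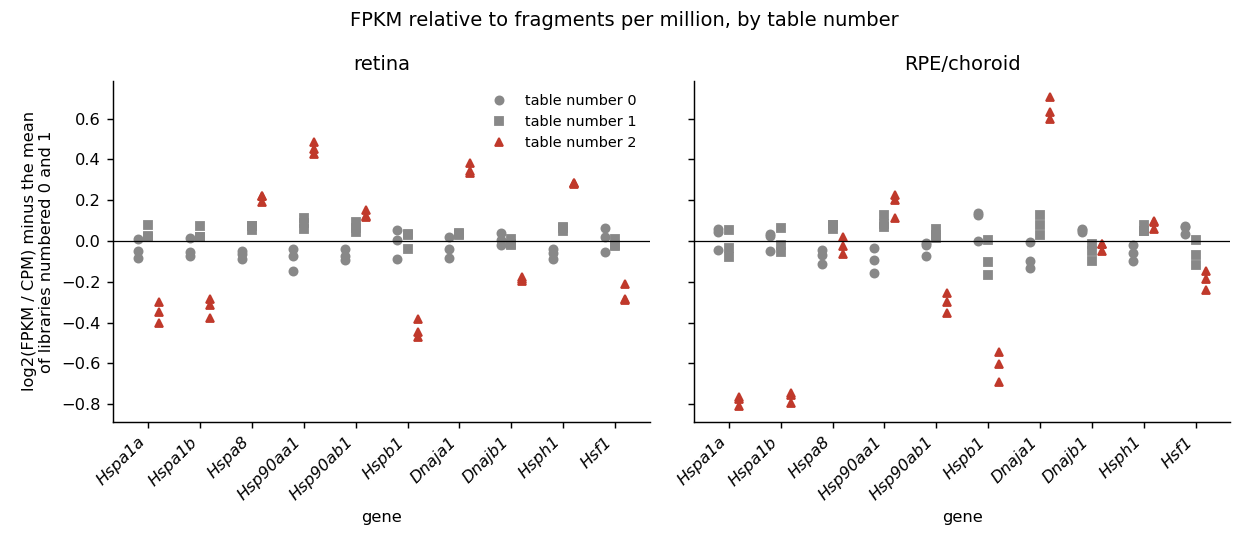
Log2 of FPKM over CPM for each gene and library, less the mean of the libraries numbered 0 and 1 of that tissue. Red triangles are the libraries numbered 2 of the 3 genotypes: in RPE/choroid they fall lowest for Hspa1a and Hspa1b (0.581 and 0.589 times the others) and highest for Dnaja1 (1.56 times).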

How the data were processed

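The submitters' processing notes name TopHat, Bowtie2, Cufflinks and the mm9 build; versions, annotation and the use of strand were not given in the sources used here. Per the file headers, the deposited gene tables hold expected counts (fragments before scaling; 98.5% of retinal and 98.4% of RPE/choroid values are whole, the rest were rounded) and FPKM per library, the transcript tables FPKM, and the authors' comparison tables p-values and q-values. The deposited transcript length, an annotation value, gave the per-kilobase values. The tables number libraries 0 to 2 and the labels 1 to 3, with nothing to link them, so libraries carry genotype and table number, and these numbers were not taken to pair libraries.

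Counts were fitted with edgeR 4.0.16 (TMM, filterByExpr, robust quasi-likelihood) in R 4.3.3, per tissue for genotypes (14699 and 15454 genes tested, coefficient of biological variation 0.114 and 0.154) and over 18 libraries for tissues and interactions (16222 genes, 0.137). P-values were adjusted by Benjamini-Hochberg over all tested genes. The models were tested on simulated data. Alternatives were DESeq2 1.42.0, limma 3.58.1 on log2(FPKM + 1) and log2(FPKM + 0.1), RLE or no scaling, other filters, the compared groups only, a replicate block, the summed Hspa1a and Hspa1b pair, terms for sex and for lens or rod genes, wild type only and leaving out each library. Libraries numbered 0 and 1 alone and per-kilobase levels were added after the data were seen, and the minimum for the FPKM to CPM comparison was lowered to 30 fragments so that Hspb1 was kept. The members, lists and tests were chosen with earlier results of these data known. Named genes are all members, up to 4 called genes of a list with the smallest adjusted p (up to 2 by p where none was called; not all are printed) and the 5 genes most like Hspa1b and Hsp90aa1. Promoters are of RefSeq GRCm38.p6, transcript sequence and GC content of a GENCODE file, matched by symbol.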

Additional observations from a re-analysis of the deposited data

How the results depend on the processing

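In 108 alternative fits of the 6 genotype comparisons and 160 with the interactions, 0 members were called. Among these, DESeq2 and the replicate block gave 0 calls in each of the 6 comparisons and both interactions. Limma, fitted within each tissue only, gave 0 in each of the 6 comparisons. Between same-numbered libraries of different genotypes, correlations ran from -0.46 to 0.21 in retina and from -0.11 to 0.25 in RPE/choroid, over 0.1 in 3 of 9 pairs each, so the table numbers were not taken to pair samples. Between tissues 7 to 9 of the 10 members were called under 27 alternatives, 9 of them with the replicate block. Hspa8 was never called. Its difference changed sign to 0.0059 with DESeq2 and with RLE scaling, 0.00016 with a sex term and 0.0015 in wild type only. It did so as well without knockout retina 0 (0.0016) and without knockout RPE/choroid 0 (0.0061). Over all 27 alternatives the Hspa8 difference ran from -0.080 to 0.0061. Hsf1 ran from 0.08 to 0.17. Of the 16 correlations, 0 passed under either alternative. Without the 2 outermost libraries, r changed sign for Hspa1b with Hsph1 in retina (-0.66) and RPE/choroid (0.36), for Hspa8 with Hsp90aa1 in RPE/choroid (0.56) and for Hspa1b with the immediate early genes in RPE/choroid (-0.069). By log2(FPKM + 1) it did so for Hspa1b with Hsph1 (-0.14) and with Hspb1 (0.49) in retina and for Hspa8 with Hsp90aa1 in RPE/choroid (0.41). For Hspa1b with Dnajb1 in RPE/choroid it was 0.284, against 0.795. The causes were not tested. With 3 libraries a group, the genotype intervals of members other than Hspb1 reach from 0.733 to 1.38 times.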
